A study of Mus musculus with 100 samples.

Results

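The question here is whether knee joints of C57BL/6 mice and of MRL/MpJ mice responded differently to the same injury 1 day after it. The measure is the difference between 2 injury responses, injured against uninjured contralateral joints in C57BL/6 minus injured against uninjured contralateral joints in MRL/MpJ, on the log2 scale and for every gene counted. It rests on 20 of the 100 libraries of the series, 5 in each of 4 groups, and all 17310 genes were tested. A difference above 0 means a response higher in C57BL/6, and a difference below 0 one higher in MRL/MpJ. C57BL/6, which the study's methods give as C57BL/6J, is a common laboratory strain that the labels rate as moderately susceptible to post-traumatic osteoarthritis (PTOA), and MRL/MpJ, known for unusual healing of wounds and cartilage, is rated there as not susceptible. Another strain, STR/ort, enters the same fit and is shown only beside these results.

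All mice were 10 weeks old when injured or, at 0-day, when their joints were taken. In the injured groups the right knee received a single compression of the tibia at 10 to 12 N, which tears the anterior cruciate ligament, and the uninjured groups hold the opposite, untouched knee of injured animals. A contralateral joint of 1-day is therefore not a joint of an untouched animal. Joints taken at 0-day, before any injury, are a separate reference with 4 libraries in each strain. RNA came from the whole knee, cut at the edges of femur and tibia with traces of soft tissue, so that cartilage, bone, marrow, synovium, ligament and muscle are mixed in each library. In such bulk RNA, fewer cells of a type and less RNA per cell cannot be told apart.

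A torn ligament sets off bleeding, an early wave of cytokines and chemokines from damaged and resident cells, and the arrival of monocytes that become macrophages. Fibroblasts of the synovium and joint capsule then switch on a repair program of collagens, matricellular proteins such as periostin, and enzymes that crosslink them. The gene groups below follow these roles.

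The 20 libraries held between 7556012 and 20986027 counts, with group medians between 8297768 in injured C57BL/6 and 10934549 in injured MRL/MpJ joints, and the deepest was C57BL/6 uninjured replicate 4. Marker genes of muscle, cartilage, bone and marrow were all present, as a whole knee would give, while 1 of 8 skin genes was measured. In 3 libraries these markers stood apart. The summed level of 18 fast muscle genes was 121000 CPM (counts per library scaled to a common total) in C57BL/6 uninjured replicate 1 against a group median of 69400, and 110000 in MRL/MpJ injured replicate 5 against 70600. The summed level of 21 cartilage genes was 2450 CPM in C57BL/6 injured replicate 3 against a group median of 5490. Results were also computed without these 3 libraries.

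At 1-day post-injury the response differed between the strains for 55 genes, 0.318% of those tested by the quasi-likelihood test of edgeR with a Benjamini-Hochberg adjusted p below 0.05 and a fold above 1.5, which is 0.58 on the log2 scale. Of these, 49 had the higher response in C57BL/6 (0.283%) and 6 in MRL/MpJ (0.0347%). The 49 included genes of fibrous matrix and fibroblasts, among them Postn, Lrrc17 and Cthrc1 near the top by adjusted p and Col3a1 and Thbs2 below, and some genes known from macrophages (Apoe near the top, Trem2, Gpnmb and Adgre1 below). The 6 included Fasn and Acaca, enzymes of fatty acid synthesis that fell in C57BL/6, and Hal, Adamtsl2 and Gprc5c, which rose in MRL/MpJ. None of 24 measured cytokines and chemokines was called. The number called depends strongly on the settings: without the 3 libraries that stand apart it was 113, of which 98 were higher in C57BL/6, with 0-day joints as the reference it was 143, of which 52 were, and with 1 library left out at a time it was between 25 and 120.

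The same fit called 970 genes between injured and contralateral joints in C57BL/6 (5.6% of those tested), 738 that rose (4.26%) and 232 that fell (1.34%), and 350 in MRL/MpJ (2.02%), 264 that rose (1.53%) and 86 that fell (0.497%). The genes that rose in both strains numbered 203, which is 27.5% of those in C57BL/6 and 76.9% of those in MRL/MpJ. The genes that fell in both numbered 38, or 16.4% and 44.2%. A further 535 genes passed the test for a rise in C57BL/6 alone, but the difference between the strains was called for only 41 of these. For the rest, no difference between the strains was called. Over the 738 genes chosen for their rise in C57BL/6 the median log2 change was 0.94 in that strain and 0.42 in MRL/MpJ, and over the 264 chosen for their rise in MRL/MpJ it was 1.11 in C57BL/6 and 0.96 in MRL/MpJ.

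**Figure D1:**
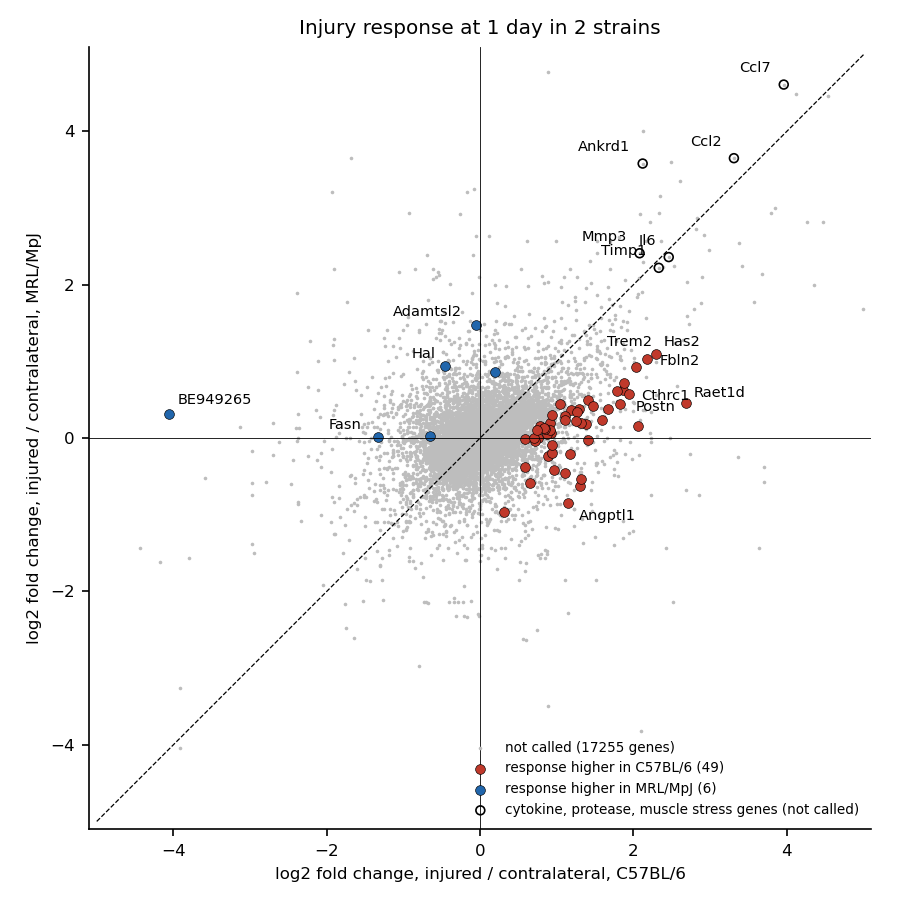
Injury response of each of 17310 genes at 1 day, as the log2 fold change of injured over contralateral joints in C57BL/6 (x axis) and in MRL/MpJ (y axis), with equal change on the dashed line and 1 gene beyond 5 drawn at the edge. The 49 genes with a response higher in C57BL/6 (red) lie to the right of the line, the 6 higher in MRL/MpJ (blue) above it, and other named genes such as Ccl2, Timp1, Mmp3 and Ankrd1 (open circles) had no called difference.

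Of the 49 genes with a response higher in C57BL/6, 47 rose in that strain by its own test, and in 48 all 5 injured C57BL/6 libraries were above all 5 contralateral ones, where 9.88% of all genes had libraries separated in either direction. In MRL/MpJ 6 of the 49 rose, 2 fell and 41 did not pass, and 15 were separated against 5.96% of all genes. The 6 that rose in both strains were Postn, Csrp2, Fbln2, Col3a1, Trem2 and Has2, and the difference is one of size there. The median difference of the 49 was 1.10 on the log2 scale, with a median response of 1.15 in C57BL/6 and 0.16 in MRL/MpJ. These genes were chosen by that difference, so the medians describe them and test nothing.

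Periostin (Postn, chromosome 3, 54359267 to 54391041 in GRCm38, which is mm10), a matricellular protein that fibroblasts of healing ligament and periosteum secrete, had the smallest adjusted p. In C57BL/6 the 5 contralateral joints had 355, 438, 391, 396 and 457 CPM and the 5 injured joints 1570, 1050, 1520, 1840 and 1450. In MRL/MpJ the contralateral joints had 265, 259, 262, 258 and 250 CPM and the injured ones 420, 409, 387, 368 and 391. All injured libraries of both strains were above the contralateral ones, by far more in C57BL/6. The log2 change was 1.86 ± 0.12 (SE, n = 5 per group) in C57BL/6 and 0.63 ± 0.11 in MRL/MpJ, and the difference was 1.23 ± 0.16 with an adjusted p of 0.000246 by edgeR. The contralateral joints of C57BL/6 were themselves called below 0-day joints (-0.71 ± 0.12). With 0-day joints as the reference the responses were 1.16 ± 0.13 in C57BL/6 and 0.78 ± 0.13 in MRL/MpJ. Their difference of 0.37 ± 0.18 was not called (adjusted p = 0.313, edgeR).

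Cthrc1, a secreted protein of activated fibroblasts, had 24.6, 33.5, 26.3, 22.9 and 27.3 CPM in C57BL/6 contralateral joints and 106, 77.8, 91.2, 138 and 102 in injured ones. In MRL/MpJ it had 19.6, 17.2, 19.4, 17.1 and 19.3 CPM against 35.1, 30.2, 25.1, 26 and 20.7. Both sets were fully separated, with a fold that barely missed 1.5 in MRL/MpJ. The difference of the responses was 1.36 ± 0.22 (adjusted p = 0.002, edgeR). Lrrc17, a secreted leucine-rich repeat protein that restrains osteoclast formation, went from 34.4 ± 10 to 103 ± 19.3 CPM (mean ± SD, n = 5) in C57BL/6 and from 36.7 ± 2.61 to 42.4 ± 3.81 in MRL/MpJ, where the libraries overlap. Its difference was 1.36 ± 0.20 (adjusted p = 0.000743). The 2 strains had about the same level of Lrrc17 in contralateral joints, with a log2 ratio of -0.05 ± 0.14. With 0-day joints as the reference neither gene was called, with differences of 0.53 ± 0.23 for Cthrc1 and 0.76 ± 0.28 for Lrrc17.

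Thrombospondin 2 (Thbs2), which binds collagen-modifying factors in the matrix, had 190, 181, 167, 139 and 183 CPM in C57BL/6 contralateral joints and 402, 319, 372, 462 and 408 in injured ones. The MRL/MpJ joints had 94.2, 80.6, 86, 86.4 and 91.3 CPM and 118, 117, 97.9, 110 and 116. Injured joints were higher in every library of both strains. The difference was 0.82 ± 0.16 (adjusted p = 0.0121, edgeR), and unlike Lrrc17 the gene was already higher in the contralateral joints of C57BL/6, by 1.01 ± 0.11. Col3a1, the fibrillar collagen of young and healing tissue, rose from 1700 ± 252 to 6250 ± 1560 CPM (mean ± SD) in C57BL/6 and from 964 ± 87.2 to 1570 ± 276 in MRL/MpJ, a difference of 1.16 ± 0.24 (adjusted p = 0.0242). With 0-day joints as the reference neither gene was called, with differences of 0.23 ± 0.18 for Thbs2 and 0.36 ± 0.25 for Col3a1. Col1a1, which encodes the main collagen of bone and ligament, was not called: its response was 0.17 ± 0.14 in C57BL/6 and 0.29 ± 0.14 in MRL/MpJ, neither of them past the test, and their difference was -0.12 ± 0.20 (adjusted p = 0.874).

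**Figure D2:**
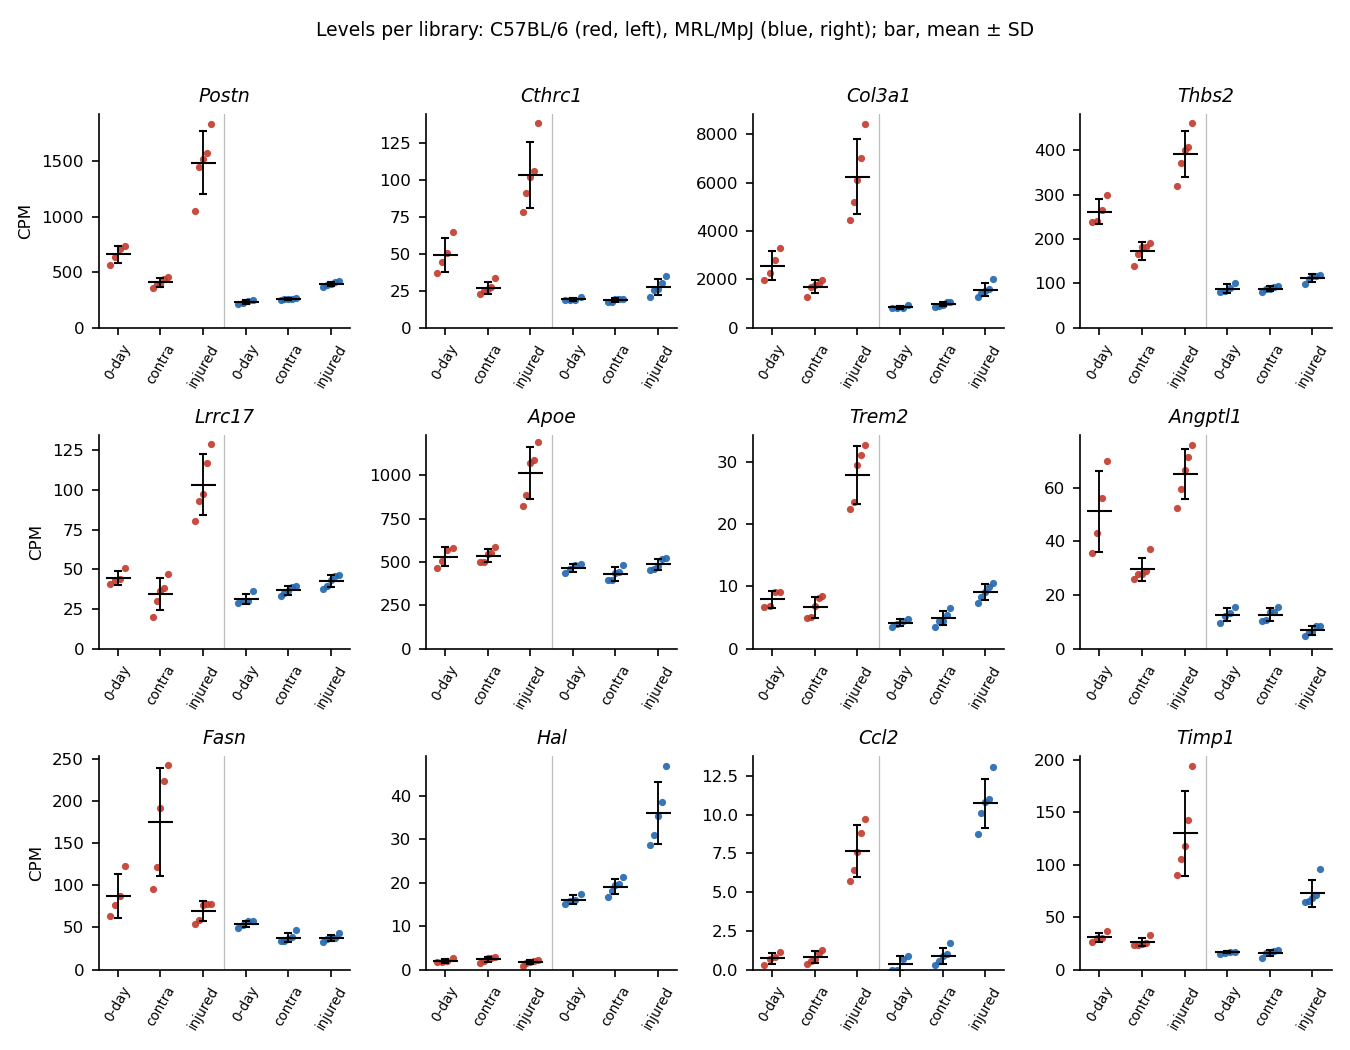
Level of 12 genes in each library, in CPM on linear axes that start at 0, for 0-day, contralateral (contra) and injured joints of C57BL/6 (red) and MRL/MpJ (blue), with the mean and SD in black (n = 4 at 0-day, 5 otherwise). Matrix and macrophage genes rise most in the red injured group, Postn, Cthrc1 and Thbs2 sit lower in the red contralateral joints than at 0-day, Fasn is high in the red contralateral joints, and Ccl2 and Timp1 rise in both strains.

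The list of 37 fibrous matrix and crosslinking genes held 6 of the called genes (Col3a1, Col5a1, Col14a1, Postn, Thbs2 and Eln), all higher in C57BL/6. By strain, 23 of the 37 rose in C57BL/6, with a median of 0.82, where 4.26% of all genes rose, and 9 rose in MRL/MpJ, with a median of 0.37, where 1.53% of all genes did. The median difference was 0.34, where that of all genes tested was -0.02, and 29 of the 37 estimates were above 0. It stayed between 0.28 and 0.35 under 4 other scalings, and 18 of the 37 had an unadjusted p below 0.05, as did 2005 of all 17310 genes. Among the members that rose in both strains without a called difference were Lox, the enzyme that starts collagen crosslinks (1.56 in C57BL/6 and 1.11 in MRL/MpJ), fibrillin 1 (Fbn1, 1.66 and 1.17), Col6a3 (1.13 and 0.88) and Thbs4 (1.04 and 1.01). Tnc, Sparc, Thbs1, Dcn and Fmod had differences between -0.14 and 0.10. With 0-day joints as the reference the median difference of the list was 0.08. The summed level of the list in C57BL/6 was 40500 to 51900 CPM at 0-day, 29500 to 41800 in contralateral and 39400 to 58100 in injured joints, so the injured joints overlap those of 0-day. In MRL/MpJ it was 20400 to 24400, 19800 to 24400 and 23300 to 29800 CPM.

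The promoters of these genes can be set side by side, since several moved together. A window of 250 bases before the annotated start (RefSeq, GRCm38.p6) was found for 38 of the 49 genes and 12794 of the genes tested. TATAAA, the core letters of a TATA box, stood on either strand in 6 of the 38 windows (15.8%; Aspn, Cav1, Col3a1, Lrrc17, Sulf2 and Thbs2) and in 7.62% of those of all genes tested. CCAAT stood in 34.2% against 35.8%, GGAATG in 13.2% against 11%, TGANTCA in 2.63% against 4.84% and TCACNCCAC in 0% against 1.02%, and none of these motifs is contained in another. With so few windows these shares are a description. The matches were counted anywhere in the window, and whether any of them acts as a TATA box was not tested. The windows of Col3a1 (chromosome 1, 45311288 to 45311537, plus strand) and Lrrc17 (chromosome 5, 21543277 to 21543526, plus strand) are shown as the 2 with TATAAA on the gene's own strand among the matrix genes named first, read 5′ to 3′ toward the start, with the match in capitals at 117 and 166 bases before it.
Col3a1: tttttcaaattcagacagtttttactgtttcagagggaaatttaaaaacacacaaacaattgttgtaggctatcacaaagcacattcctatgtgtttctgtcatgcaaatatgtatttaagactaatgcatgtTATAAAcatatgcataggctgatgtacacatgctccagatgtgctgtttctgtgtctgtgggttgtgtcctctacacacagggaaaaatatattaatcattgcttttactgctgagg
Lrrc17: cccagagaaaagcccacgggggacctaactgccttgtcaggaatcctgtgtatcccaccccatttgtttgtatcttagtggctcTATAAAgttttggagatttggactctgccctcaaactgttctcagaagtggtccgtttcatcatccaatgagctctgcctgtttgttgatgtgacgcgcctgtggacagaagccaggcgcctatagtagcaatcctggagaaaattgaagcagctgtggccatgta

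Angptl1, a secreted relative of the angiopoietins, was the only named gene called in both strains in opposite directions. In C57BL/6 it had 37, 29.1, 27.8, 25.8 and 27.9 CPM in contralateral joints and 66.7, 52.6, 59.4, 75.9 and 71.5 in injured ones. In MRL/MpJ it had 13.5, 13.7, 15.5, 10.6 and 10.1 CPM in contralateral joints and 6.32, 8.58, 4.74, 6.27 and 8.32 in injured ones. Injured joints were above every contralateral joint in C57BL/6 and below every one in MRL/MpJ. The responses were 1.15 ± 0.19 and -0.85 ± 0.24 on the log2 scale, and their difference was 2.01 ± 0.31 (adjusted p = 0.000918, edgeR). With 0-day joints as the reference the difference between the strains was not called (adjusted p = 0.0567). The injured C57BL/6 joints then overlapped the reference joints, which had 35.7 to 69.8 CPM, and the responses were 0.34 ± 0.21 in C57BL/6 (adjusted p = 0.308, not called) and -0.88 ± 0.28 in MRL/MpJ (adjusted p = 0.0405). In STR/ort it fell, by 1.83 ± 0.20 on the log2 scale.

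Secreted proteins of the Wnt pathway were also among the 49. Sfrp2 rose in C57BL/6 from 32.6 ± 8.83 to 115 ± 24.8 CPM (mean ± SD, n = 5) and had 11.5 ± 1.57 and 15.5 ± 1.92 in MRL/MpJ, where libraries overlap, and the difference was 1.38 ± 0.31 (adjusted p = 0.0339). With 0-day joints as the reference the difference of Sfrp2 was 0.97 ± 0.34 and not called (adjusted p = 0.129, edgeR). For Dkk3 the C57BL/6 injured joints had 46.1 to 67.6 CPM against 35.8 to 43.1, and the MRL/MpJ injured joints 19.3 to 22.7 against 24.4 to 30.7, which is a move in opposite directions with fully separated libraries, although only the rise in C57BL/6 passed (0.59 ± 0.13, against -0.38 ± 0.14). The difference of Dkk3 was 0.98 ± 0.19 (adjusted p = 0.0123). Against 0-day joints Dkk3 had -0.08 ± 0.13 in C57BL/6, and the difference was 0.45 ± 0.20 and not called (adjusted p = 0.276). Sfrp2 and Dkk3 were the 2 called genes among 32 of the TGF-beta, BMP and Wnt list, whose median difference was -0.04. Estimates lay on both sides of 0, with 16 of the 32 above it. An unadjusted p below 0.05 was reached by 13 of the 32, and by 2005 of all 17310 genes. Has2, the hyaluronan synthase of synovial lining cells, rose in all 3 strains, by 2.29 ± 0.18 in C57BL/6, 1.09 ± 0.19 in MRL/MpJ and 1.73 ± 0.17 in STR/ort, and it was the 1 called gene of 16 in the lubricin, hyaluronan and prostaglandin list (difference 1.20 ± 0.26, adjusted p = 0.0305). Its level in contralateral joints was 6.36 ± 0.824 CPM in C57BL/6 and 6.38 ± 0.773 in MRL/MpJ. With 0-day joints as the reference the difference of Has2 was 1.00 ± 0.28 and not called (adjusted p = 0.0501, edgeR).

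Other called genes, of matrix or of various cell structures, were fibulin 2 (Fbln2, 2.18 ± 0.16 in C57BL/6 and 1.03 ± 0.15 in MRL/MpJ), asporin (Aspn), tenascin N (Tnn), Col23a1, the heparan sulfate 6-O-endosulfatase Sulf2, the dermatan sulfotransferase Chst14, the muscle LIM-domain relative Csrp2, caveolin 1 (Cav1) and lamin A/C (Lmna). Phldb2, which ties microtubules to adhesions at the cell base, had 24.2 to 30.2 CPM in contralateral and 41.2 to 65.8 in injured joints of C57BL/6, and 21.7 to 23.9 and 21.5 to 25.6 in MRL/MpJ. Its response was 0.92 ± 0.09 in the first strain and 0.07 ± 0.09 in the second, and the difference was 0.85 ± 0.13 (adjusted p = 0.000743). Epb41l3, a membrane skeleton protein, rose from 20.6 to 37.5 CPM on average in C57BL/6 and had 21 and 21.4 CPM in MRL/MpJ (difference 0.82 ± 0.14, adjusted p = 0.00319).

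Some genes known from macrophages were also among the 49. Apolipoprotein E (Apoe, chromosome 7), which macrophages secrete as they take up and export lipid, had 553, 588, 497, 498 and 546 CPM in contralateral and 1070, 824, 1090, 1190 and 888 in injured joints of C57BL/6. The MRL/MpJ joints had 438, 394, 393, 485 and 441 CPM and 516, 462, 476, 522 and 456. C57BL/6 libraries were separated and MRL/MpJ libraries overlapped. The response was 0.91 ± 0.08 in C57BL/6 and 0.20 ± 0.08 in MRL/MpJ, and the difference of 0.72 ± 0.12 had an adjusted p of 0.00257 by edgeR. With 0-day joints in place of the contralateral ones it was 0.85 ± 0.12, and it passed there as well (adjusted p = 0.000127).

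Trem2, a lipid-sensing receptor of macrophages, had 5.05, 4.87, 8.12, 8.5 and 6.79 CPM in C57BL/6 contralateral joints and 31.2, 23.5, 29.6, 32.8 and 22.5 in injured ones, with 6.45, 3.47, 5.42, 4.4 and 4.5 and then 9.18, 10.6, 8.35, 9.93 and 7.41 in MRL/MpJ. It rose in both strains, by 2.03 ± 0.15 and 0.93 ± 0.17, and the difference was 1.10 ± 0.23 (adjusted p = 0.0242). Gpnmb, a glycoprotein of lipid-laden macrophages and of osteoblasts, had 21.2 to 32.8 CPM in contralateral and 40.1 to 55.1 in injured joints of C57BL/6, against 8.19 to 12 and 5.41 to 10.8 in MRL/MpJ (difference 1.13 ± 0.24, adjusted p = 0.0242). Adgre1, which encodes the macrophage surface marker F4/80, went from 62.1 ± 5.49 to 119 ± 14.4 CPM in C57BL/6 and from 37.3 ± 3.26 to 45.5 ± 5.18 in MRL/MpJ (difference 0.63 ± 0.14, adjusted p = 0.0339). C1qc, a chain of complement C1q that macrophages make, was the 1 called gene of 19 in the acute phase and complement list, with a difference of 0.63 ± 0.15 (adjusted p = 0.0467). The prostaglandin D synthase Hpgds had 44.9 to 48.9 CPM in injured joints of C57BL/6 against 25.1 to 35.3, and 28.1 to 35.3 against 31.1 to 35.3 in MRL/MpJ (difference 0.60 ± 0.10, adjusted p = 0.00274). Cd300c2, Pltp and Fads3 were also called with a response higher in C57BL/6, by 0.62 to 0.82.

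Of the 17 measured monocyte and macrophage markers, Gpnmb and Trem2 had a called difference between the strains, and the median difference of the list was 0.05 and between 0.00 and 0.09 under other scalings. Adgre1, which the list carries under an older symbol and which was therefore not matched, would be a further called member and was named after its value was seen. Msr1 (1.67 in C57BL/6 and 1.97 in MRL/MpJ), Ms4a7 (1.73 and 1.40), Fcgr1 (1.11 and 1.44), Cd14 (1.07 and 0.92), Ccr2 (0.68 and 0.63) and Folr2 (0.69 and 0.79) rose in both strains with no called difference. Of the list, 9 members rose in C57BL/6 and 8 in MRL/MpJ, against 4.26% and 1.53% of all genes. The summed level of the list was 2820 to 3290 CPM in injured joints of C57BL/6 against 2380 to 3250 in contralateral ones, and 2240 to 2760 against 2390 to 2550 in MRL/MpJ, and Cd68 and Csf1r were present throughout. The part of the number of macrophages in the differences above was not tested.

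Among the remaining genes with a response higher in C57BL/6, cardiac troponin T (Tnnt2) rose from 2.29 to 9.04 CPM on average in C57BL/6 and had 3.69 and 3.99 CPM in MRL/MpJ. Raet1d, a stress ligand for the NKG2D receptor, had the largest difference of the 49, 2.22 ± 0.52, at a mean of 1.95 CPM in injured C57BL/6 joints, but its family holds near-identical copies whose reads the counting could split, so its value is uncertain. Fam132b, which encodes the iron hormone erythroferrone, also had few counts, with 1.15 and 2.83 CPM in C57BL/6 and 1.77 and 1.20 in MRL/MpJ.

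The 6 genes with a response higher in MRL/MpJ fall into those that fell in C57BL/6 and those that rose in MRL/MpJ. Fatty acid synthase (Fasn, chromosome 11) had 191, 242, 95.4, 122 and 223 CPM in contralateral joints of C57BL/6 and 78.3, 76.2, 54.6, 59.2 and 78.3 in injured ones. In MRL/MpJ it had 33.7, 33.4, 36.2, 38.3 and 46.6 CPM and 36.1, 43.5, 36.9, 38 and 32.6. The C57BL/6 libraries were separated, with a wide spread among contralateral joints, and those of MRL/MpJ overlapped. The response was -1.33 ± 0.17 in C57BL/6 and 0.01 ± 0.18 in MRL/MpJ, so that the difference was -1.34 ± 0.25 (adjusted p = 0.0085, edgeR). At 0-day, C57BL/6 joints had 123, 63, 76.4 and 86.9 CPM, which overlaps both the injured and the contralateral joints, and the contralateral change against 0-day was not called (0.99 ± 0.26, adjusted p = 0.151). Acetyl-CoA carboxylase (Acaca), which supplies Fasn with malonyl-CoA, had 68.4 to 108 CPM in contralateral, 45.2 to 61.9 in injured and 48.6 to 64.4 in 0-day joints of C57BL/6 (difference -0.68 ± 0.15, adjusted p = 0.0267).

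With 0-day joints as the reference, the difference of Fasn was 0.18 ± 0.38 and that of Acaca 0.06 ± 0.21, neither of them called and both on the other side of 0. Other genes of fatty acid synthesis were looked up after these values had been seen. Acly, which makes the acetyl-CoA that Acaca uses, had a difference of -0.43 ± 0.10 (adjusted p = 0.0479) and so missed the fold, Scd1 one of -1.21 ± 0.30 (adjusted p = 0.0633), Elovl6 one of -0.30 ± 0.17 and the regulator Srebf1 one of 0.03 ± 0.13. None of the 13 white and brown fat markers had a called difference, and their median response was -0.53 in C57BL/6, where 5 fell (1.34% of all genes), and -0.48 in MRL/MpJ, where 2 fell (0.497%).

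Histidine ammonia-lyase (Hal), the first enzyme of histidine breakdown, had 21.3, 19.5, 19.8, 16.7 and 18.2 CPM in contralateral joints of MRL/MpJ and 38.5, 46.8, 28.8, 31.1 and 35.3 in injured ones. In C57BL/6 it had 2.81, 2.76, 1.53, 2.56 and 2.04 CPM and 0.931, 1.61, 1.97, 1.72 and 2.17. The MRL/MpJ groups were separated, those of C57BL/6 overlapped, and contralateral joints of the strains differed by -2.98 ± 0.18. The response was 0.94 ± 0.14 in MRL/MpJ and -0.46 ± 0.26 in C57BL/6, and the difference of -1.40 ± 0.29 (adjusted p = 0.0242) remained with 0-day joints as the reference (-1.48 ± 0.30, adjusted p = 0.00526). In STR/ort, Hal rose by 2.03 ± 0.17. Adamtsl2, a secreted protein of the microfibril matrix, had 0.85 to 1.30 CPM in contralateral and 1.70 to 3.93 in injured joints of MRL/MpJ, and 1.47 to 2.83 and 1.58 to 2.62 in C57BL/6 (difference -1.53 ± 0.32, adjusted p = 0.0243). Gprc5c, an orphan receptor, rose in MRL/MpJ from 22.3 ± 1.81 to 40.1 ± 8.19 CPM, but its contralateral joints were below those of 0-day (34.2 ± 2.94), and with 0-day as the reference the difference was 0.01 ± 0.15 against -0.67 ± 0.16 (adjusted p = 0.0485). The transcript BE949265 had 1 count in all 5 injured C57BL/6 libraries together, against 4 to 9 in each contralateral one, and 6 to 20 in injured MRL/MpJ libraries against 8 to 11, so no fold is given (adjusted p = 0.0479).

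No difference between the strains was called for the early cytokine and chemokine genes. Of 24 measured cytokines and chemokines, 13 rose in C57BL/6 and 12 in MRL/MpJ, where 4.26% and 1.53% of all genes did, with median responses of 1.05 and 1.16. Their median difference was -0.02 and changed sign between scalings, from -0.07 to 0.08. With 0-day joints as the reference the median difference was -0.40. Of the 24 genes, 5 had an unadjusted p below 0.05 for the difference, as did 2005 of all 17310 genes. The monocyte-attracting chemokine Ccl2 had 0.674, 1.1, 0.361, 0.54 and 1.27 CPM in contralateral and 7.57, 5.69, 8.8, 9.74 and 6.43 in injured joints of C57BL/6. In MRL/MpJ it had 1.72, 0.975, 0.531, 0.879 and 0.327 CPM and 10.8, 13.1, 8.73, 11 and 10.1. Every injured library was above every contralateral one in both strains, and the difference of the responses was -0.33 ± 0.64 (adjusted p = 0.896, edgeR), with only 4 to 16 counts in each contralateral library.

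None of the other named chemokines and cytokines was called, and their errors were wide. The differences were -0.65 ± 0.76 for Ccl7, -0.83 ± 0.65 for Ccl8, 1.11 ± 0.55 for the neutrophil attractant Cxcl5, 0.10 ± 0.79 for Il6 and 0.42 ± 0.37 for the alarmin Il33, with adjusted p between 0.437 and 0.983. With a standard error of 0.79, a difference of the size called for Postn would not be detectable for Il6. The stromelysin Mmp3 and its inhibitor Timp1 rose in both strains as well. Timp1 had 23.3 to 32.5 CPM in contralateral and 90.1 to 194 in injured joints of C57BL/6, and 11.3 to 18.9 and 64.4 to 95.6 in MRL/MpJ, with responses of 2.33 ± 0.20 and 2.22 ± 0.22 and a difference of 0.11 ± 0.29 (adjusted p = 0.928). For Mmp3 the difference was -0.33 ± 0.40 (adjusted p = 0.809). None of the 27 cytokine receptor and NF-kB feedback genes and none of the 29 matrix proteases and inhibitors had a called difference.

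Ankrd1, a stretch-responsive gene of muscle and wound tissue, had the largest difference among the named genes that were not called. Its contralateral joints had 27.5, 15.8, 16.3, 9.9 and 12.5 CPM in C57BL/6 and 47.3, 45, 27.1, 18.6 and 19.2 in MRL/MpJ. Injured joints had 61.8, 23.6, 107, 117 and 37 CPM in C57BL/6 and 151, 525, 305, 284 and 571 in MRL/MpJ. All injured MRL/MpJ libraries were above all injured C57BL/6 libraries, but the spread within each group was wide. The difference was -1.46 ± 0.55 (adjusted p = 0.269), and with 0-day joints as the reference -2.46 ± 0.53, which was called (adjusted p = 0.00933). The ubiquitin ligase Fbxo32 of muscle atrophy (0.68 ± 0.35, adjusted p = 0.455) and the channel gene Trpm1 (-1.14 ± 0.58, adjusted p = 0.455) were not called, nor was muscle actin, Acta1 (0.02 ± 0.31, adjusted p = 0.992).

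**Figure D3:**
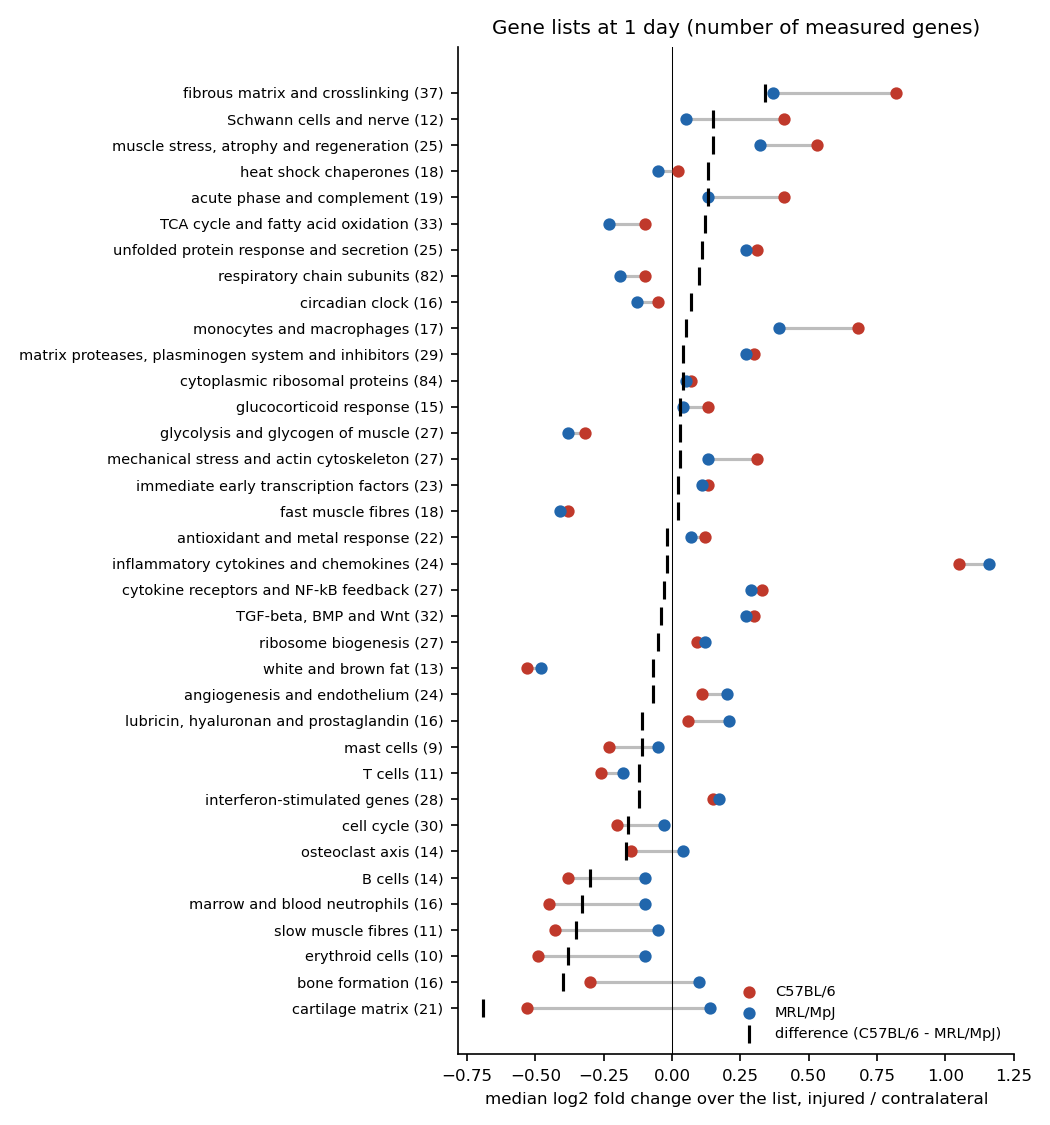
Median log2 fold change, injured over contralateral joints, over the measured genes of each list in C57BL/6 (red) and MRL/MpJ (blue), with the median of the gene-wise differences as a black bar and the number of measured genes in brackets. The skin list, with 1 measured gene at 0.86, and the sex-linked list are not drawn, and the others are ordered by that difference, from 0.34 for fibrous matrix to -0.69 for cartilage matrix, and the cytokine list is highest in both strains with a difference of -0.02.

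At the other end of the order stood markers of tissues that the joint holds. The 21 cartilage matrix genes had a median difference of -0.69, between -0.75 and -0.63 under other scalings, with none of them called. Their median response was -0.53 in C57BL/6, where 5 fell (1.34% of all genes), and 0.14 in MRL/MpJ, where 0 did (0.497%). Examples are the cartilage collagen Col2a1 (-0.50 and 0.19), matrilin 3 (Matn3, -0.92 and -0.03), Col10a1 of hypertrophic chondrocytes (-0.80 and 0.20) and Ucma (-1.01 and -0.01), of which the last 3 fell in C57BL/6. The summed cartilage level was 2450 to 6930 CPM in injured joints of C57BL/6 against 6020 to 7910, and 2560 to 4320 against 2210 to 4200 in MRL/MpJ. Without the 3 libraries that stand apart the median difference was -0.54. Contralateral joints were lower than 0-day joints in both strains, with list medians of -0.33 in C57BL/6 and -0.41 in MRL/MpJ. With 0-day joints as the reference the median difference was -0.50.

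The 16 bone formation genes had a median difference of -0.40 and 15 of them lay below 0, with none called. All 16 neutrophil genes of marrow and blood lay below 0 as well, with a median of -0.33, and 14 had an unadjusted p below 0.05, as did 2005 of all 17310 genes, although none was called. Myeloperoxidase (Mpo), for example, had a response of -0.48 in C57BL/6 and -0.11 in MRL/MpJ. The summed neutrophil level was 11100 to 14100 CPM in injured joints of C57BL/6 and 15800 to 19900 in contralateral ones, which do not overlap, against 14600 to 19200 and 18300 to 19100 in MRL/MpJ. Erythroid genes (median -0.38 over 10) and B cell genes (-0.30 over 14) lay in the same direction. The median of 11 slow muscle genes, -0.35, rested on single libraries: it was 0.01 without C57BL/6 uninjured replicate 5, -0.73 without C57BL/6 injured replicate 5, and -0.07 under another scaling. Fast muscle genes had a median of 0.02, whose sign changed with the scaling. These marker levels moved with the injured C57BL/6 group in which some fibrous matrix and some macrophage genes rose more than in MRL/MpJ. Their part in the results above was not tested.

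**Figure D4:**
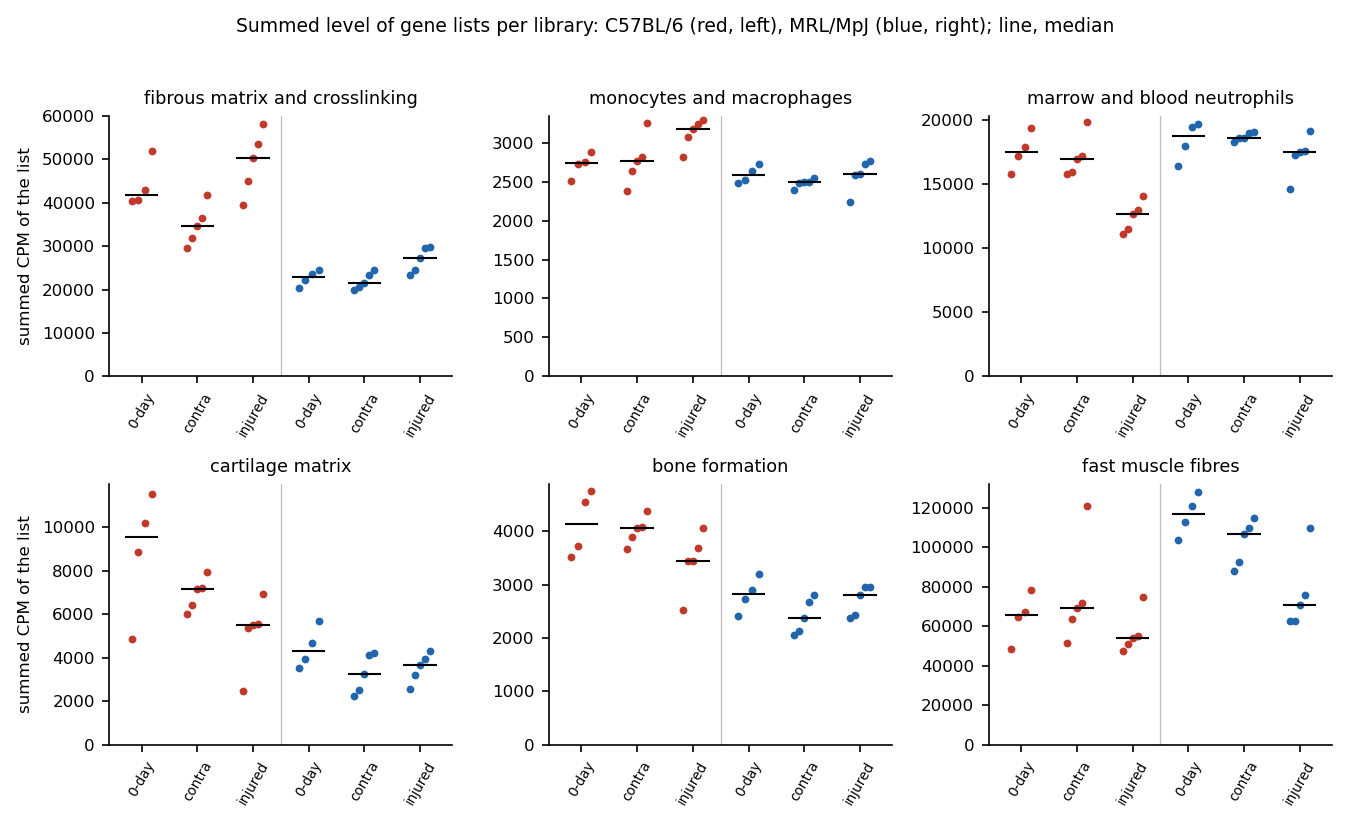
Summed CPM of 6 gene lists in each library of 0-day, contralateral (contra) and injured joints of C57BL/6 (red) and MRL/MpJ (blue), with group medians as lines and axes that start at 0. Injured C57BL/6 joints have the lowest neutrophil sums and the highest median of fibrous matrix, which overlaps 0-day joints of the same strain, and the 3 libraries that stand apart show as single high points of fast muscle and 1 low point of cartilage.

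The remaining lists had no called gene. Their median differences were 0.15 for 25 genes of muscle stress, atrophy and regeneration, 0.15 for Schwann cells, 0.13 for heat shock chaperones, 0.12 for the TCA cycle and fatty acid oxidation, 0.11 for the unfolded protein response, 0.10 for 82 subunits of the respiratory chain, 0.04 for 84 ribosomal proteins, 0.07 for circadian clock genes, -0.12 for interferon-stimulated genes and for T cells, -0.16 for the cell cycle and -0.17 for the osteoclast axis. Glucocorticoid, mechanical stress, immediate early, glycolysis and antioxidant genes lay between -0.02 and 0.03, and 5 sex-linked genes had a median of -0.03. Angiogenesis, ribosome biogenesis, fat and mast cell lists lay between -0.11 and -0.05. The signs for interferon-stimulated genes, ribosomal proteins, matrix proteases and the glucocorticoid, mechanical stress, immediate early and glycolysis lists changed with the scaling. Those for antioxidant and sex-linked genes did not.

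The strains can also be compared within each kind of joint. In contralateral joints 33 of the 49 genes did not differ between the strains by the test, 12 were higher in C57BL/6 and 4 were higher in MRL/MpJ (Dusp18, Rab15 and Fads3 among them), where 9% and 5.81% of all genes were called. In injured joints 43 of the 49 were higher in C57BL/6 and 6 were not called, where 10% of all genes were higher in C57BL/6 and 6.33% in MRL/MpJ. These contrasts share libraries with the difference that chose the genes, and their counts are a description. In STR/ort, where 4.31% of all genes were called, 1.61% that rose and 2.7% that fell, 3 of the 49 rose and 6 fell, with a median of -0.06. Those that fell were Angptl1, Aspn, Dkk3, Gpnmb, Col14a1 and Prnd.

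The result depended on the reference joint. In C57BL/6, 18 genes were called between contralateral joints of 1-day and joints of 0-day (0.104%), 1 higher (0.00578%) and 17 lower (0.0982%), and 6 of these 17 were among the 49, with Postn (-0.71 ± 0.12), Cthrc1 (-0.87 ± 0.15), Thbs2 (-0.61 ± 0.12), Dkk3 (-0.67 ± 0.13) and Tnn (-1.06 ± 0.19). In all, 40 of the 49 had a lower estimate in contralateral than in 0-day joints of C57BL/6, with a median of -0.24. The same contralateral libraries chose the 49, and low values there favour that choice, so these counts are a description. In MRL/MpJ 20 genes were called (0.116%), 11 higher (0.0635%) and 9 lower (0.052%), of which Gprc5c was 1 of the 55, and the median of the 49 was 0.09. Between the strains this change of the contralateral joints differed for 12 genes (0.0693%), 3 above 0 (0.0173%) and 9 below (0.052%), and 2 of these 9, Postn among them, were among the 49. Injured joints against 0-day joints gave 803 called genes in C57BL/6 (4.64%), 522 that rose (3.02%) and 281 that fell (1.62%), and 35 of the 49 rose there. In MRL/MpJ they gave 560 (3.24%), 340 that rose (1.96%) and 220 that fell (1.27%), and 9 of the 49 rose and 3 fell.

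With 0-day joints as the reference in both strains, 143 genes were called (0.826%), 52 with a response higher in C57BL/6 and 91 higher in MRL/MpJ. They share the injured libraries with the main comparison. Of the 55 genes, 16 were called with both references, which is 29.1% of the 55 and 11.2% of the 143: Apoe, Lmna, Fads3, Adgre1, Hal, Anpep, Phldb2, Pltp, Csrp2, Gpnmb, Cd300c2, Tnnt2, Col23a1, Aif1l, Prnd and Raet1d. The median difference of the 49 was 0.61 there. Of the macrophage genes described above, Apoe had 0.85, Adgre1 0.72 and Gpnmb 1.05, all called, while C1qc had 0.55 (adjusted p = 0.0604) and Trem2 0.68 ± 0.25 (adjusted p = 0.16) and were not called. Among the other genes named above, Col23a1 had 0.98 ± 0.25 (adjusted p = 0.0281), and Csrp2, Phldb2 and Lmna were called as well. The matrix genes described first had smaller differences and were not called. Postn had 0.37 ± 0.18 (adjusted p = 0.313 by edgeR), Cthrc1 0.53 ± 0.23 (0.244), Lrrc17 0.76 ± 0.28 (0.16), Col3a1 0.36 ± 0.25 (0.548) and Thbs2 0.23 ± 0.18 (0.592). Against 0-day joints Cthrc1 rose in C57BL/6, by 1.07 ± 0.15, and had 0.54 ± 0.17 in MRL/MpJ, which missed the fold. The median of the 24 cytokines was -0.40 with this reference.

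**Figure D5:**
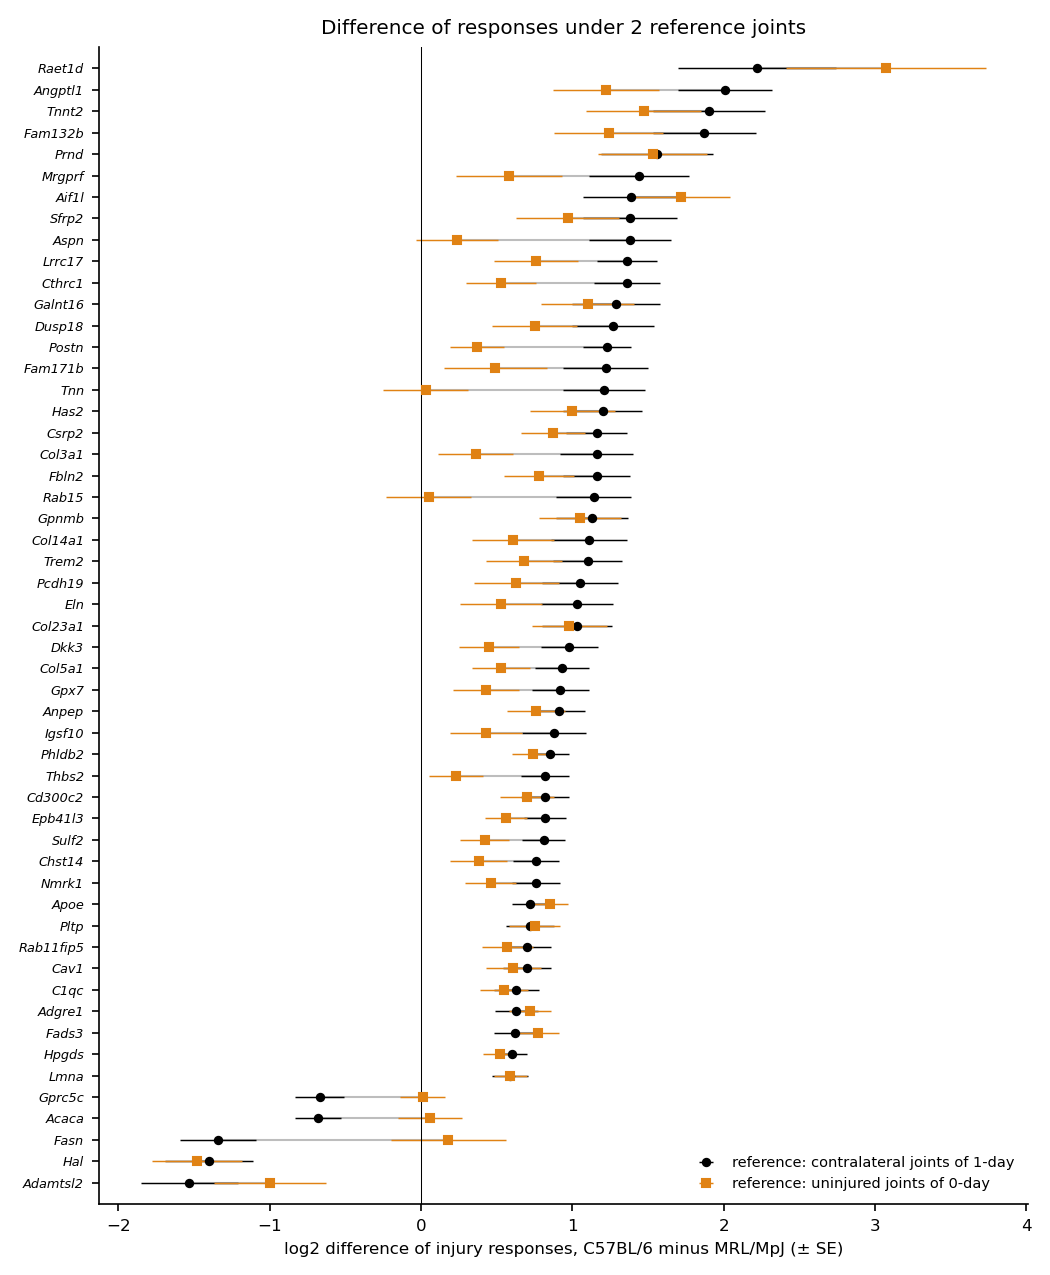
Difference of the injury responses, C57BL/6 minus MRL/MpJ, on the log2 scale (± SE) for 53 of the 55 called genes, BE949265 left out for its few counts, with contralateral joints of 1-day (black circles) or joints of 0-day (orange squares) as the reference. Apoe, Adgre1, Gpnmb, Col23a1 and Hal differ little between the references, Trem2 goes from 1.10 to 0.68, and Postn, Thbs2, Tnn, Fasn, Acaca and Gprc5c move toward 0 or past it.

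At the later times, 1-week and, in another experimental batch, 2-weeks, 0 genes were called for the same difference by the quasi-likelihood test of edgeR (0% at either time), with 505 and 984 genes at an unadjusted p below 0.05. DESeq2 called 0 and 2, and the likelihood ratio test of edgeR called 0 and 3. The median difference of the 49 genes was 0.17 at 1-week and 0.18 at 2-weeks, where that of all genes was -0.01 and 0.01, and 34 and 37 of the 49 estimates were above 0. Postn had 0.17 ± 0.32 and 0.00 ± 0.13, Cthrc1 0.32 ± 0.32 and 0.22 ± 0.22, Apoe -0.04 ± 0.14 and -0.11 ± 0.12, and Hal -0.70 ± 0.25 and -0.73 ± 0.28. No gene was tested between time points, so a change of the difference over time was not tested.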

How the data were processed

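RNA was sequenced from whole knee joints, 100 libraries in all. The authors aligned reads to mm10 with TopHat2 (version 2.0.11) and counted them per RefSeq gene with featureCounts, and the deposited table holds these counts, whole numbers without normalization. The strand setting is not given in the sources used here. Of 17313 rows, 3 repeats were dropped, and 24 gene names had been turned into dates. The authors' minimum, 2 counts in 5 libraries, took out 0 genes. Groups came from the labels. All 30 libraries of 1-day entered 1 fit with a mean for each strain and joint, in edgeR (4.0.16, under R 4.3.3), with TMM factors and its quasi-likelihood test, and a further fit of 42 libraries added those of 0-day. P-values are adjusted over all genes, and SEs come from the fold change and its F statistic. Depth, 7556012 to 20986027 counts per library, limits genes with few counts. CPM used TMM factors over all libraries. The labels do not say which 1-day joints share an animal, so p-values measure the spread between these libraries. The scripts were tested on simulated data. Genes named in full are up to 10 called ones a direction, ranked by adjusted p, up to 2 called per list, 13 listed by symbol, and any called in opposite directions, and other called genes are named more briefly. Some genes counted in the totals are not reported here. Members and lists were chosen with earlier results of these data known. Alternatives were RLE and housekeeping scaling, RUVg, other filters, DESeq2 (1.42.0), a likelihood ratio test, fewer groups, a replicate block, 0-day joints, and libraries left out.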

Additional observations from a re-analysis of the deposited data

Results flagged for a closer look

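The difference between the injury responses of the strains passed its own test for 22 named genes. It was 1.23 for Postn, 1.36 for Lrrc17 and for Cthrc1, 0.82 for Thbs2, 0.85 for Phldb2, 0.82 for Epb41l3 and 0.81 for Sulf2, all on the log2 scale. It was 2.01 for Angptl1, 1.38 for Sfrp2, 0.98 for Dkk3 and 1.2 for Has2. Among genes known from macrophages it was 0.72 for Apoe, 1.1 for Trem2, 1.13 for Gpnmb and 0.63 for C1qc, and it was 0.6 for Hpgds. In the direction of MRL/MpJ it was -1.34 for Fasn, -0.68 for Acaca, -1.4 for Hal, -1.53 for Adamtsl2 and -0.67 for Gprc5c, and BE949265 had an adjusted p of 0.0479.

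A single library stood far from the other 4 of its group in 11 of 140 combinations of named gene and group, where chance gives about 1 in 20. In MRL/MpJ contralateral joints these were Hpgds in replicate 3 (35.3 CPM), Has2 in replicate 4 (7.74) and Fbxo32 in replicate 3 (340). In MRL/MpJ injured joints they were Sulf2 in replicate 3, the 1 low value (35.7 CPM), and Ccl7 (16.9) and Timp1 (95.6) in replicate 2. In C57BL/6 contralateral joints they were BE949265 (1.01 CPM) and Acta1 (1.1e+04) in replicate 1, C1qc in replicate 2 (40.5) and Timp1 in replicate 5 (32.5). In C57BL/6 injured joints it was BE949265 in replicate 2 (0.124 CPM, a single count).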

How the results depend on the processing

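The number of genes with a different response in the strains, 55, moved with the processing, and the cause was not tested. It was 24 with housekeeping scaling (20 higher in C57BL/6), 126 with 2 RUVg factors (112 and 14), 106 with DESeq2 (88 and 18), 114 with the likelihood ratio test (89 and 25), 143 with 0-day joints (52 and 91) and 113 without the 3 libraries that stand apart (98 and 15). The last was chosen after seeing the data. With 1 RUVg factor, 10 genes were higher in MRL/MpJ. With the replicate number as a block, 60 genes were called, 10 of them higher in MRL/MpJ, and 41 were shared with the 55. Adamtsl2, C1qc, Gprc5c and BE949265 lost their calls under the block (adjusted p = 0.0564, 0.0692, 0.0842 and 0.0784 by edgeR). Calls also ended with housekeeping scaling for Thbs2, Dkk3, Sfrp2, C1qc, Hpgds, Gprc5c and BE949265, with the compared groups alone for Acaca, Has2 and Gprc5c, and without the 3 libraries for Adamtsl2, Hpgds, Gprc5c and BE949265. Whether the numbers pair the 1-day joints is not given by the labels: same-numbered libraries correlated at 0.06 to 0.14 in C57BL/6 and -0.17 to 0.22 in MRL/MpJ, and 3 of 5 in each strain matched their own number best. The injury response of MRL/MpJ had 560 called genes against 0-day joints. At 2-weeks DESeq2 called 2 genes, the likelihood ratio test 3, and leaving out 1 library 0 to 4.

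With 1 library left out, 25 to 120 genes were called, 22 to 99 higher in C57BL/6 and 2 to 21 in MRL/MpJ. The count moved by over 1.5 times without injured C57BL/6 replicate 1 (26), 2 (120) or 4 (29), uninjured C57BL/6 replicate 3 (29) or 4 (36), injured MRL/MpJ replicate 3 (25), and uninjured MRL/MpJ replicate 1 (27) or 3 (36). Of the 22 called genes named, 11 passed in each of these fits: Postn, Lrrc17, Phldb2, Angptl1, Cthrc1, Apoe, Epb41l3, Sulf2, Fasn, Thbs2 and Dkk3, of which Thbs2 and Dkk3 lost theirs with housekeeping scaling. With 0-day joints, 4 of the 22 were called in the same direction (Phldb2, Apoe, Hal and Gpnmb). BE949265 lost its call in 17 of 20 fits, Gprc5c in 16, C1qc in 12, Sfrp2 in 9, Has2 and Acaca in 7, Trem2 in 5, Gpnmb, Hpgds and Adamtsl2 in 4 and Hal in 3. Signs turned for Fasn (0.18), Acaca (0.06), Gprc5c (0.01) and Timp1 (-0.09) with 0-day joints, for Acta1 (-0.04) with housekeeping scaling and with 1 RUVg factor, and for Col1a1 (0.02) without the 3 libraries. With 1 library left out, Il6 ranged from -0.49 to 0.39, Timp1 from -0.08 to 0.26, Acta1 from -0.07 to 0.25, Ccl7 from -1.59 to -0.18, Ccl2 from -0.71 to -0.06, Mmp3 from -0.47 to -0.13, Cxcl5 from 0.59 to 1.31 and Il33 from 0.18 to 0.55.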
